A study of Mus musculus with 8 samples.

Results

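The genes described here are 44 genes of the cell division cycle: G1 cyclins and their kinases, the retinoblastoma and E2F genes, inhibitors of cyclin-dependent kinases (CDKs), DNA replication genes and mitosis genes. They were chosen by symbol, and a gene was measured where a transcript cluster, the set of array probes that reports 1 gene, carried its symbol alone. By this rule 42 of the 44 were measured, on 46 of the 35556 transcript clusters: 8 G1 cyclins and CDKs, 6 retinoblastoma and E2F genes, 3 CDK inhibitors, 12 replication genes and 13 mitosis genes. *Ccnb1* was not matched to a transcript cluster, and *Cdkn1a* was matched to a single cluster, shared with *4930567H12Rik*, whose values are given but not counted. The *Sox3* null group had 4 cultures with an array each, and so had the control group, whose cells carry a conditional *Sox3* allele, are labelled *Sox3* positive and are called wild type in the methods. All cultures were mouse R1 embryonic stem (ES) cells taken to Day 4 of monolayer differentiation in N2B27 medium, which holds no serum and lets ES cells turn into neural progenitors. For each genotype, replicates 3 and 4 came from 1 differentiation series (batch 2) and replicates 1 and 2 from another (batch 1). Each genotype is a separate ES cell line, so that an effect of *Sox3* and a difference between lines cannot be told apart, and the sources used here do not give the number of clones behind each line. The labels name gelatine and the methods name irradiated feeder fibroblasts as the surface on which the ES cells were kept.

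A cell that is to divide first commits to it in G1, where D-type cyclins with CDK4 or CDK6 and E-type cyclins with CDK2 phosphorylate the retinoblastoma proteins and so release the E2F factors, which switch on the genes of DNA replication. The MCM helicase is loaded on DNA by CDC6 and CDT1, geminin (*Gmnn*) prevents a repeat of that loading within the same cycle, and the mitosis genes are expressed later, in G2 and M. In resting cells the DREAM complex silences them, and in dividing cells they are activated by complexes that share its MuvB core. Neural progenitors divide rapidly while they renew themselves, D-type cyclins are prominent in them, and CDK inhibitors accumulate as they leave the cycle to become neurons.

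Replication and mitosis genes are known for different short sequences in their promoters, which are shown here because the 2 groups are described apart in the arrays. In the 250 bases before the start sites of RefSeq (build GRCm38.p6), both strands were searched for E2F sites (TTTCCCGC, TTTCGCGC, TTTGCCGC and TTTGGCGC), for the cell cycle homology region or CHR (TTTGAA and TTCGAA), to which MuvB complexes bind, and for the CCAAT box (CCAAT), to which NF-Y binds. Of the 42 measured genes 34 had a promoter in the table. Where a gene had several start sites, a match at any of them was counted. An E2F site was present in 4 of 10 replication promoters and 1 of 11 mitosis promoters, against 2.16% of all genes. A CHR was present in 6 of 11 mitosis promoters and 2 of 10 replication promoters, against 19.6% of all genes. A CCAAT box was present in 9 of 11 mitosis promoters and 8 of 10 replication promoters, against 37.5% of all genes, and all 6 mitosis promoters with a CHR also held a CCAAT box, a pair found in 7.93% of all genes. Neither motif was particular to these groups: among 5 retinoblastoma and E2F promoters, 3 held a CHR and 2 an E2F site. The 100 bases before the start of 4 mitosis genes are given below, with CHR and CCAAT matches of either strand in capitals. A match on the reverse strand shows its complement, so that a CCAAT box there reads ATTGG. They come from chr10:69352913-69353012 (minus strand) for *Cdk1*, chr9:70421555-70421654 (minus) for *Ccnb2*, chr4:118437344-118437443 (minus) for *Cdc20* and chr11:99024190-99024289 (minus) for *Top2a*.
Cdk1: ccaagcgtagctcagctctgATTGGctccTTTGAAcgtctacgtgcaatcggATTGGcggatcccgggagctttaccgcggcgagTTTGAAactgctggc
Ccnb2: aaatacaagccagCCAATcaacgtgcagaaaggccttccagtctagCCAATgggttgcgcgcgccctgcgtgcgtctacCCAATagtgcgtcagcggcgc
Cdc20: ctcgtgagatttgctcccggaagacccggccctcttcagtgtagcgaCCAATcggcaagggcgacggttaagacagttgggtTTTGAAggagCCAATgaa
Top2a: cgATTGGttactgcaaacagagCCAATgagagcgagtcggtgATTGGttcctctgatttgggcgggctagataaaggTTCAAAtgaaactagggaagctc

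The CHR of *Ccnb2* lay outside its 100 bases, farther from the start. The E2F matches of the replication genes are given in the same way, with the E2F letters in capitals. They come from chr8:75109348-75109375 (plus strand) for *Mcm5*, chr1:128359737-128359823 (minus) for *Mcm6*, chr5:138172033-138172056 (minus) for *Mcm7* and chr11:98908005-98908028 (plus) for *Cdc6*, all within 173 bases of the start.
Mcm5: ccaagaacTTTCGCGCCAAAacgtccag
Mcm6: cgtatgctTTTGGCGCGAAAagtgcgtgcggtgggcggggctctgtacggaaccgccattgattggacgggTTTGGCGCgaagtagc
Mcm7: ttcgaaccGCGGGAAAcagggtgt
Cdc6: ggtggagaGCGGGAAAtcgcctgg
*Mcm5* held 2 overlapping matches on opposite strands, and *Mcm6* held 3, of which the first 2 overlap. These matches are a description of letters and not of bound sites, and their relation to the array values was not tested.

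The arrays were alike in scale, with medians of 7.63 to 7.70 over the named transcript clusters, and no pair of arrays agreed as 1 sample deposited in duplicate would (highest correlation 0.9985). *Sox3* itself had log2 signals of 8.39, 8.56, 8.67 and 8.37 in *Sox3* null replicates 1 to 4, against 9.92, 9.84, 9.73 and 9.76 in control replicates 1 to 4, as the labels say. The mean log2 signal of 8 neural progenitor markers was 11.20 to 11.36 in *Sox3* null arrays and 10.90 to 11.12 in control arrays, so the groups did not overlap, and 3 of the 8 rose (*Sox9* by 0.51, *Nes* by 0.49 and *Zic1* by 0.36 on the log2 scale, at the limma threshold given below, which 1.15% of all transcript clusters passed as higher and 0.393% as lower). The mean of 8 pluripotency markers was 9.57 to 9.75 in *Sox3* null arrays and 9.68 to 9.84 in control arrays, and 1 of the 8 fell (*Nanog*, -0.37). The mean of 6 neuron markers was 9.18 to 9.47 in *Sox3* null arrays and 9.05 to 9.17 in control arrays, so these did not overlap either, though narrowly. Of the 6 neuron markers 1 rose (*Map2*, 0.47). The mean of 6 fibroblast markers was 6.65 to 6.96 in *Sox3* null arrays and 6.85 to 7.08 in control arrays, and 1 of the 6 fell (*Thy1*, -0.51). None of 7 mesoderm and endoderm markers passed, with means of 6.89 to 7.15 in *Sox3* null arrays and 6.92 to 7.30 in control arrays. The call of *Nanog* was lost without any 1 array but control replicate 4, that of *Zic1* without *Sox3* null replicate 1 or control replicate 1, and that of *Map2* without *Sox3* null replicate 1 or control replicate 3. With the methods' linear model, in which each gene has its own variance, all 6 of these marker calls were lost (adjusted p = 0.121 for *Sox9*, 0.179 for *Nes*, 0.139 for *Zic1*, 0.281 for *Nanog*, 0.20 for *Map2* and 0.141 for *Thy1*). The part of these cell types in the genotype differences below was not tested. A log2 signal has no true zero, and the table holds no detection call that would show a marker to be absent. RNA came from whole cultures, so fewer cells of a type or phase and less RNA per cell cannot be told apart.

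Whether the loss of *Sox3* was accompanied by a change in these genes was asked first. A gene passed at an adjusted p of 0.05 or less in limma, fitted over all 23410 named transcript clusters with terms for genotype and batch, and a fold change below is *Sox3* null over control. Of the 42 genes, 1 passed, *Ccnd2*, which was higher in *Sox3* null cells, and none was lower. Over all transcript clusters 1.55% passed in either direction, and 1.15% were higher, so 1 of 42 is a share near that background. None of the 42 reached 1.4-fold, the fold threshold of the study's results, together with the adjusted p in limma, against 0.431% of all transcript clusters. Of the 42 genes 6 had an unadjusted p under 0.05, all of them higher in *Sox3* null cells and all of them G1 cyclins or CDKs, retinoblastoma genes or CDK inhibitors (*Ccnd2*, *Cdk6*, *Ccne2*, *Rbl1*, *Cdkn1b* and *Cdkn2c*). The background for an unadjusted p under 0.05 was 13.1% in either direction and 7.31% for higher values. The log2 fold change lay within 0.1 of 0 for 34 of the 42 genes, against 73.8% of all transcript clusters, and the 95% interval stayed within 1.4-fold for 41 of the 42, against 98.1%, with *Cdk6* as the exception.

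**Figure D1:**
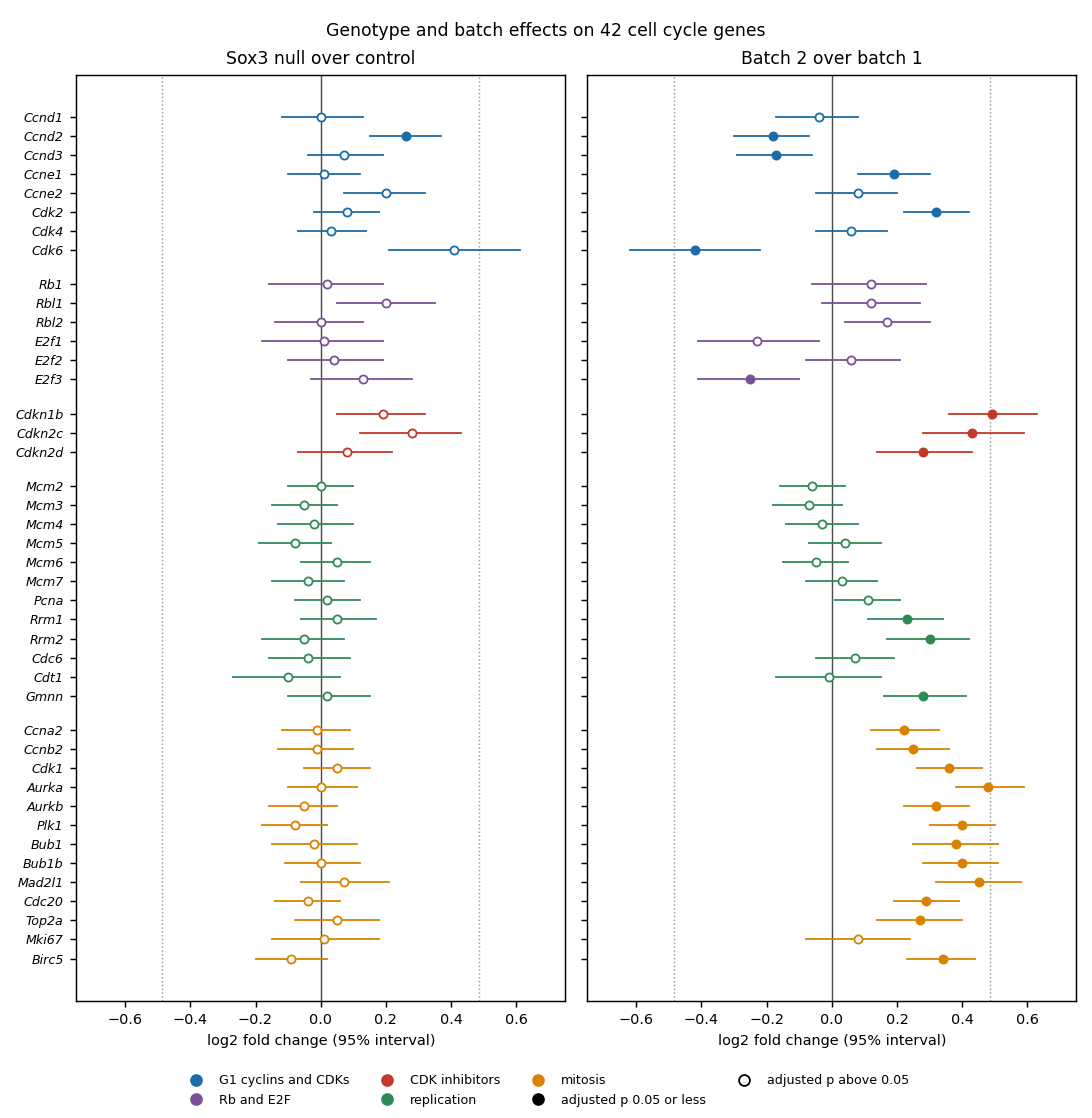
Log2 fold change of each of the 42 genes with its 95% interval, for Sox3 null over control (left) and batch 2 over batch 1 (right), coloured by role; filled points had an adjusted p of 0.05 or less in limma, and dotted lines mark 1.4-fold. On the left 1 point is filled (Ccnd2) and all mitosis points lie within 0.1 of 0. On the right 24 are filled, and 12 of the 13 mitosis genes are filled and above 0.

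*Ccnd2* encodes a D-type cyclin, a partner of CDK4 and CDK6. Its log2 signal was 12.61, 12.63, 12.49 and 12.48 in *Sox3* null replicates 1 to 4, against 12.44, 12.37, 12.11 and 12.24 in control replicates 1 to 4. Every *Sox3* null array was above every control array, which held for 2.41% of all transcript clusters, and for 4.6% in either direction. The mean was 12.55 ± 0.0803 in *Sox3* null cells and 12.29 ± 0.145 in control cells (SD, n = 4 each), a log2 fold change of 0.26 (SE 0.0514, 95% interval 0.15 to 0.37, limma adjusted p = 0.0327), with 0.31 within batch 2 and 0.21 within batch 1. The call rested on all 8 arrays: without any 1 of them the fold change stayed between 0.23 and 0.28 but the adjusted p lay between 0.0536 and 0.0997. It was also lost with the methods' linear model (adjusted p = 0.127), and without the batch term (adjusted p = 0.433).

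*Cdk6*, the kinase that D-type cyclins activate, had the largest fold change among the 42 genes. Its log2 signal was 10.80, 10.83, 10.25 and 10.56 in *Sox3* null replicates 1 to 4, against 10.33, 10.52, 9.80 and 10.17 in control replicates 1 to 4. Within each batch both *Sox3* null arrays were above both control arrays, but over the batches the groups overlapped, since batch 2 was lower in both genotypes. The log2 fold change was 0.41 (SE 0.0910, 95% interval 0.21 to 0.61) with 0.43 within batch 2 and 0.39 within batch 1, and it missed the threshold (limma adjusted p = 0.0581). It passed without control replicate 4 (0.48, adjusted p = 0.0302) and with the replicate number as a block (adjusted p = 0.00872).

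*Ccne2*, an E-type cyclin that activates CDK2, was 9.55, 9.47, 9.65 and 9.64 in *Sox3* null replicates 1 to 4, against 9.28, 9.46, 9.38 and 9.40 in control replicates 1 to 4. The groups did not overlap, although *Sox3* null replicate 2 and control replicate 2 were close. The log2 fold change was 0.20 (95% interval 0.07 to 0.32, limma adjusted p = 0.147). The other 5 genes of the G1 group had fold changes of 0.00 to 0.08, none of which passed: *Ccnd1* (0.00), *Ccnd3* (0.07), *Ccne1* (0.01), *Cdk2* (0.08) and *Cdk4* (0.03). No member of the G1 group had a negative fold change, against 11716 of all 23410 transcript clusters. The median of the group was 0.08, against 0.00 over all transcript clusters.

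**Figure D2:**
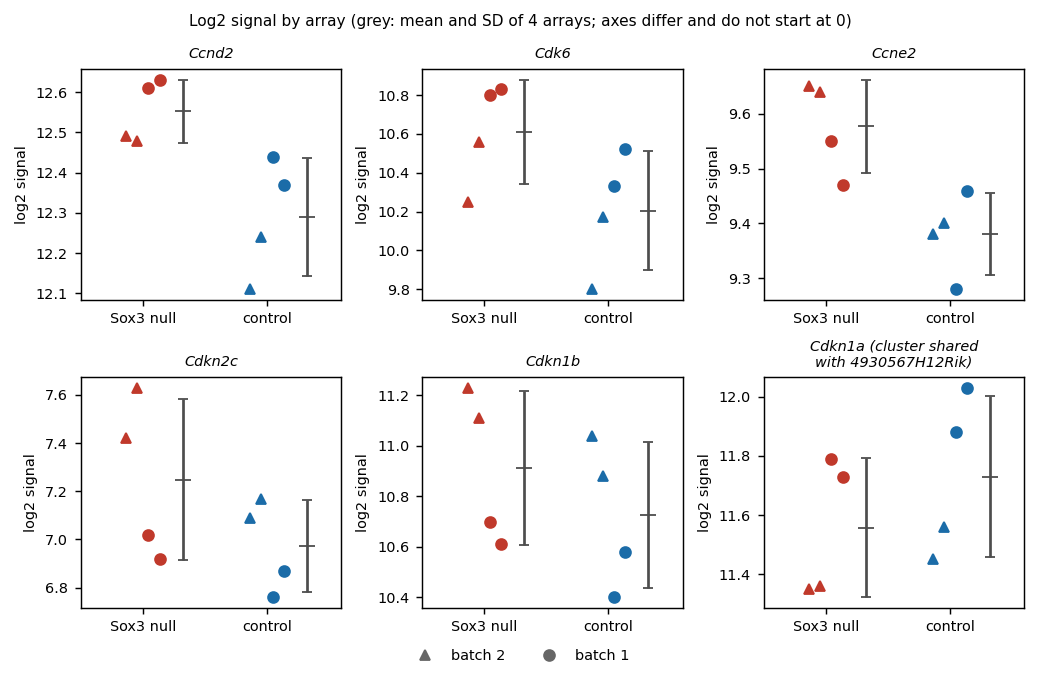
Log2 signal in each array for 5 cell cycle genes and for the transcript cluster that Cdkn1a shares with 4930567H12Rik; red marks Sox3 null and blue control, triangles batch 2 and circles batch 1, and grey bars show the mean and SD of 4 arrays on axes that do not start at 0. The 4 Sox3 null arrays lie above all 4 control arrays for Ccnd2 and Ccne2, and within each batch for Cdk6, Cdkn2c and Cdkn1b.

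Among the genes of the retinoblastoma pathway none of 6 passed, and their median fold change was 0.03. *Rbl1*, which encodes the pocket protein p107, was 10.08, 9.91, 10.11 and 10.07 in *Sox3* null replicates 1 to 4, against 9.65, 9.89, 9.99 and 9.84 in control replicates 1 to 4. The groups overlapped through control replicate 3, and the log2 fold change was 0.20 (95% interval 0.05 to 0.35, limma adjusted p = 0.231). *Rb1*, the retinoblastoma gene, was 10.44, 10.33, 10.34 and 10.58 in *Sox3* null replicates 1 to 4, against 10.16, 10.49, 10.46 and 10.51 in control replicates 1 to 4 (log2 fold change 0.02). The groups overlapped, with the lowest value in control replicate 1. *E2f3*, which encodes an activating E2F, was 11.04, 10.88, 10.62 and 10.75 in *Sox3* null replicates 1 to 4, against 10.76, 10.86, 10.72 and 10.44 in control replicates 1 to 4, so the groups overlapped (log2 fold change 0.13, adjusted p = 0.504). *E2f2*, another activating E2F, was 7.26, 7.53, 7.51 and 7.55 in *Sox3* null replicates 1 to 4, against 7.46, 7.38, 7.38 and 7.45 in control replicates 1 to 4 (log2 fold change 0.04). *Sox3* null replicates 2 to 4 were above every control array and *Sox3* null replicate 1 was below them all. The third activating E2F, *E2f1*, had a fold change of 0.01, and *Rbl2*, a pocket protein gene related to *Rbl1*, had 0.00.

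The 3 CDK inhibitors measured had fold changes of 0.08 to 0.28 (median 0.19), and none passed. *Cdkn2c* encodes an INK4 inhibitor of CDK4 and CDK6. It was 7.02, 6.92, 7.42 and 7.63 in *Sox3* null replicates 1 to 4, against 6.76, 6.87, 7.09 and 7.17 in control replicates 1 to 4, with both *Sox3* null arrays above both control arrays within each batch and overlap across the batches. The log2 fold change was 0.28 (95% interval 0.12 to 0.43, limma adjusted p = 0.0933), with 0.40 within batch 2 and 0.16 within batch 1. *Cdkn1b*, which encodes the p27 inhibitor that accumulates as progenitors leave the cycle, was 10.70, 10.61, 11.23 and 11.11 in *Sox3* null replicates 1 to 4, against 10.40, 10.58, 11.04 and 10.88 in control replicates 1 to 4. Again the genotypes were apart within each batch and not across them (log2 fold change 0.19, 95% interval 0.05 to 0.32, adjusted p = 0.216), and a second, dimmer cluster of the gene had 0.22. *Cdkn2d*, another INK4 inhibitor, was 7.42, 7.36, 7.50 and 7.67 in *Sox3* null replicates 1 to 4, against 7.32, 7.13, 7.59 and 7.59 in control replicates 1 to 4, overlapping in batch 2 (log2 fold change 0.08). The cluster shared by *Cdkn1a*, the p53-induced CDK inhibitor, and *4930567H12Rik* was 11.79, 11.73, 11.35 and 11.36 in *Sox3* null replicates 1 to 4, against 11.88, 12.03, 11.45 and 11.56 in control replicates 1 to 4. The *Sox3* null arrays were the lower ones within each batch, the log2 fold change was -0.17 (95% interval -0.29 to -0.05) and it did not pass (adjusted p = 0.192). The signals of the pair of genes on this cluster cannot be told apart.

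None of the 12 replication genes passed for genotype, and the fold changes ran from -0.10 to 0.05 with a median of -0.03. *Cdt1*, which loads the MCM helicase, had the lowest fold change of the 42 genes. Its log2 signal was 11.21, 11.29, 11.18 and 11.23 in *Sox3* null replicates 1 to 4, against 11.32, 11.32, 11.16 and 11.53 in control replicates 1 to 4, and the groups overlapped through control replicate 3 (log2 fold change -0.10, 95% interval -0.27 to 0.06, limma adjusted p = 0.617). *Mcm5*, a subunit of the helicase, was 12.10, 12.14, 12.21 and 12.19 in *Sox3* null replicates 1 to 4, against 12.27, 12.22, 12.18 and 12.31 in control replicates 1 to 4 (-0.08). *Mcm3* was 11.63, 11.59, 11.55 and 11.52 in *Sox3* null replicates 1 to 4, against 11.69, 11.63, 11.61 and 11.57 in control replicates 1 to 4 (-0.05). *Mcm6* was 12.07, 11.98, 11.97 and 12.00 in *Sox3* null replicates 1 to 4, against 11.98, 12.00, 11.95 and 11.91 in control replicates 1 to 4 (0.05). In each of these 3 helicase genes the ranges of the genotypes overlapped. The other helicase subunits had fold changes of 0.00 (*Mcm2*), -0.02 (*Mcm4*) and -0.04 (*Mcm7*). *Pcna*, the sliding clamp of the DNA polymerases, had 0.02, the ribonucleotide reductase genes *Rrm1* and *Rrm2*, which supply deoxynucleotides, had 0.05 and -0.05, *Cdc6* had -0.04 and *Gmnn* had 0.02.

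None of the 13 mitosis genes passed for genotype either, and all 13 fold changes lay within 0.1 of 0 (-0.09 to 0.07, median -0.01). *Birc5*, which encodes survivin of the chromosomal passenger complex, was 9.73, 9.76, 10.13 and 10.10 in *Sox3* null replicates 1 to 4, against 9.90, 9.84, 10.20 and 10.14 in control replicates 1 to 4. Within each batch the *Sox3* null arrays were below the control arrays, and the difference of -0.09 (95% interval -0.20 to 0.02) did not pass (limma adjusted p = 0.472). *Plk1*, a kinase that drives entry into mitosis, was 11.99, 11.97, 12.34 and 12.41 in *Sox3* null replicates 1 to 4, against 12.06, 12.06, 12.43 and 12.49 in control replicates 1 to 4 (-0.08, adjusted p = 0.512). *Aurkb*, the kinase of the passenger complex, was 11.67, 11.67, 11.99 and 12.05 in *Sox3* null replicates 1 to 4, against 11.78, 11.73, 12.05 and 12.04 in control replicates 1 to 4 (-0.05). *Mad2l1*, of the spindle checkpoint, was 12.19, 12.00, 12.56 and 12.47 in *Sox3* null replicates 1 to 4, against 11.96, 12.02, 12.54 and 12.40 in control replicates 1 to 4 (0.07). For *Plk1* the genotypes were also apart within each batch, with *Sox3* null lower, whereas *Aurkb* overlapped in batch 2 and *Mad2l1* in both batches. In all, 4 of the 13 mitosis genes were apart in the same direction within each batch. The others were *Cdc20*, with *Sox3* null lower, and *Cdk1*, with *Sox3* null narrowly higher. The fold change was 0.01 for *Mki67*, the common marker of dividing cells, 0.05 for *Cdk1*, the mitotic kinase, -0.01 for its partners *Ccna2* and *Ccnb2*, and 0.05 for *Top2a*, which untangles chromosomes. In 11 of the 42 genes the genotypes were apart within batch 2 and within batch 1 in the same direction, against 12.1% of all transcript clusters. For none of these 42 did the genotype effect pass as different between the batches (interaction term of limma, smallest adjusted p 1.00). Of all 23410 transcript clusters 0 passed, so this threshold could not set the 42 apart. None of the 42 had an unadjusted p under 0.05 for the interaction, against 3.05% of all transcript clusters. With 2 arrays per genotype and batch, a small difference between the batches could be missed.

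The wider pathway, over lists that do not include the 42 genes, was likewise measured for genotype. Of 20 other genes of G1 and S phase entry none passed (median 0.02), of 38 other replication genes none passed (median 0.01, range -0.10 to 0.15), and of 40 other mitosis genes 1 passed (median 0.02, range -0.13 to 0.27), a share near the 1.55% of all transcript clusters. That gene was *Cdc25b*, a phosphatase that activates CDK1 at mitotic entry. Its log2 signal was 9.74, 9.75, 9.78 and 9.72 in *Sox3* null replicates 1 to 4, against 9.57, 9.45, 9.44 and 9.44 in control replicates 1 to 4. The groups did not overlap, and the log2 fold change was 0.27 (SE 0.0497, limma adjusted p = 0.0211). The call was lost without any 1 array other than control replicate 1, with adjusted p-values of 0.0521 to 0.0800, and with the methods' linear model (adjusted p = 0.0934). Of 4 other CDK inhibitors none passed. *Cdkn1c*, which encodes the p57 inhibitor, was 9.87, 9.93, 10.12 and 10.18 in *Sox3* null replicates 1 to 4, against 9.83, 9.64, 9.70 and 9.82 in control replicates 1 to 4, with every *Sox3* null array above every control array (log2 fold change 0.28, adjusted p = 0.0793). It passed without control replicate 1 (0.34, adjusted p = 0.0386). Of 11 target genes of p53 none passed. Negative fold changes were found in 9 of the 11, against 11716 of all 23410 transcript clusters, and the median was -0.12, against 0.00.

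The arrays were then compared between the 2 differentiation series, with batch 2 over batch 1 in the same limma fit. This comparison sets 1 series against 1 other, and its p-values measure the spread between cultures of a series and not the spread between series. Of the 42 genes 24 passed, 20 higher and 4 lower in batch 2, against 20.2% of all transcript clusters in either direction, 10.9% higher and 9.35% lower. With a fold change of at least 1.4 besides, 1 of the 42 was called (*Cdkn1b*, 1.41-fold), against 2.49% of all transcript clusters. In 22 genes all 4 arrays of batch 2 were above all 4 of batch 1, and in 2 they were below, against 11.7% and 9.34% of all transcript clusters, and 21% in either direction. The calls were unevenly spread over the roles: 12 of 13 mitosis genes, 3 of 3 CDK inhibitors, 5 of 8 G1 genes, 3 of 12 replication genes and 1 of 6 retinoblastoma and E2F genes.

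**Figure D3:**
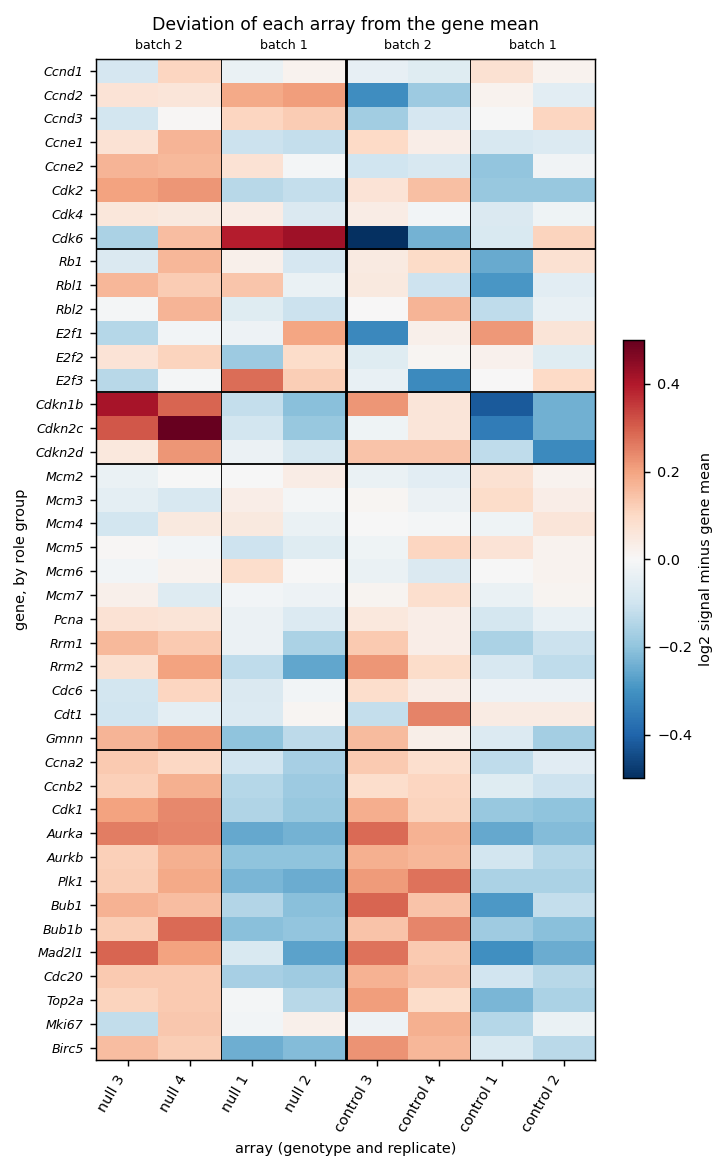
Log2 signal of each array minus the mean of the gene over the 8 arrays, with genes in rows by role (black lines) and arrays in columns by genotype and batch; red is above the gene mean and blue below. In the mitosis rows, Mki67 apart, the arrays of batch 2 lie above the gene mean and those of batch 1 below it in both genotypes, whereas the rows of the 6 MCM genes are pale.

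The mitosis genes were higher in batch 2 in both genotypes, with a median log2 fold change of 0.34, against 0.00 over all transcript clusters. Their mean log2 signal in batch 2 was 11.84 and 11.87 in *Sox3* null cells and 11.88 and 11.85 in control cells, and in batch 1 it was 11.55 and 11.51 in *Sox3* null cells and 11.53 and 11.55 in control cells. *Aurka*, a kinase of the centrosomes and the spindle, rose most. It was 11.26 and 11.25 in *Sox3* null cells and 11.29 and 11.18 in control cells of batch 2, against 10.75 and 10.77 in *Sox3* null cells and 10.75 and 10.79 in control cells of batch 1. The lowest array of batch 2 stood well above the highest of batch 1, and the log2 fold change was 0.48 (SE 0.0481, 95% interval 0.38 to 0.59, limma adjusted p = 1.38e-04). *Plk1* rose by 0.40 (adjusted p = 2.95e-04), and its 4 arrays of batch 2 (12.34 to 12.49) were apart from those of batch 1 (11.97 to 12.06). *Cdk1* was 12.41 and 12.45 in *Sox3* null cells and 12.39 and 12.32 in control cells of batch 2, against 12.06 and 12.02 in *Sox3* null cells and 12.02 and 12.01 in control cells of batch 1, a rise of 0.36 (adjusted p = 5.08e-04). The spindle checkpoint genes *Mad2l1*, *Bub1b* and *Bub1* rose by 0.45, 0.40 and 0.38, the passenger genes *Birc5* and *Aurkb* by 0.34 and 0.32, and *Cdc20*, an activator of the anaphase-promoting complex, by 0.29. *Top2a* rose by 0.27 and the mitotic cyclin genes *Ccnb2* and *Ccna2* by 0.25 and 0.22. All 12 kept the call without any 1 array. *Mki67* was the gene that did not pass: it was 11.78 and 12.04 in *Sox3* null cells and 11.88 and 12.08 in control cells of batch 2, against 11.89 and 11.93 in *Sox3* null cells and 11.76 and 11.87 in control cells of batch 1 (0.08, 95% interval -0.08 to 0.24, adjusted p = 0.521). Its batches overlapped.

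Of the 12 replication genes 3 were higher in batch 2 and none was lower. The 6 MCM helicase genes had log2 fold changes of -0.07 to 0.04, and none passed. *Rrm2*, *Gmnn* and *Rrm1* rose by 0.30, 0.28 and 0.23 (limma adjusted p = 0.00441, 0.00508 and 0.0110). *Rrm2* was 12.28 and 12.40 in *Sox3* null cells and 12.42 and 12.29 in control cells of batch 2, against 12.07 and 11.94 in *Sox3* null cells and 12.12 and 12.07 in control cells of batch 1. *Gmnn* was 7.64 and 7.68 in *Sox3* null cells and 7.63 and 7.50 in control cells of batch 2, against 7.27 and 7.34 in *Sox3* null cells and 7.40 and 7.30 in control cells of batch 1. *Rrm1* was 12.36 and 12.33 in *Sox3* null cells and 12.33 and 12.23 in control cells of batch 2, against 12.17 and 12.04 in *Sox3* null cells and 12.04 and 12.09 in control cells of batch 1. In all 3 genes the batches did not overlap. *Pcna* (0.11), *Cdc6* (0.07) and *Cdt1* (-0.01) did not pass, although *Pcna* did with the methods' linear model (adjusted p = 0.0197) and with an intensity trend in limma (adjusted p = 0.0289). The batches of *Pcna* did not overlap either, with 13.17 to 13.21 in batch 2 and 13.05 to 13.11 in batch 1. In *Mcm2* (-0.06) they were narrowly apart, with batch 2 lower. Over all transcript clusters 21% were apart in either direction. The median of the 12 replication genes was 0.03 on the deposited values but -0.03 after a further quantile normalization, so it has no settled sign.

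All 3 CDK inhibitors were higher in batch 2. *Cdkn1b* was 11.23 and 11.11 in *Sox3* null cells and 11.04 and 10.88 in control cells of batch 2, against 10.70 and 10.61 in *Sox3* null cells and 10.40 and 10.58 in control cells of batch 1. The batches did not overlap, and the rise of 0.49 (SE 0.0623, 95% interval 0.36 to 0.63, limma adjusted p = 4.26e-04) was the largest among the 42 genes. A second cluster of the gene rose by 0.40. *Cdkn2c* rose by 0.43 (adjusted p = 0.00167) with 7.09 to 7.63 in batch 2 and 6.76 to 7.02 in batch 1, and *Cdkn2d* by 0.28 (adjusted p = 0.0112) with 7.50 to 7.67 in batch 2 and 7.13 to 7.42 in batch 1. The call of *Cdkn2d* was lost with the methods' linear model (adjusted p = 0.0675). The cluster shared by *Cdkn1a* and *4930567H12Rik* went the other way, with 11.35 and 11.36 in *Sox3* null cells and 11.45 and 11.56 in control cells of batch 2, against 11.79 and 11.73 in *Sox3* null cells and 11.88 and 12.03 in control cells of batch 1 (-0.43, adjusted p = 3.97e-04).

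In the G1 group 2 genes were higher and 3 lower in batch 2, with a median of 0.01. *Cdk2*, the kinase of the E-type cyclins, was 10.69 and 10.71 in *Sox3* null cells and 10.56 and 10.64 in control cells of batch 2, against 10.35 and 10.37 in *Sox3* null cells and 10.30 in both control cultures of batch 1 (0.32, limma adjusted p = 9.37e-04). *Ccne1* was 11.33 and 11.43 in *Sox3* null cells and 11.36 and 11.29 in control cells of batch 2, against 11.15 and 11.14 in *Sox3* null cells and 11.18 and 11.19 in control cells of batch 1 (0.19, adjusted p = 0.0239). Both had no overlap between the batches. *Cdk6* fell by 0.42 (adjusted p = 0.00793), *Ccnd2* by 0.18 (adjusted p = 0.0275) and *Ccnd3*, the third D-type cyclin, by 0.17 (adjusted p = 0.0368). Within each genotype both *Cdk6* arrays of batch 2 and both *Ccnd2* arrays of batch 2 were below those of batch 1. *E2f3* fell by 0.25 (adjusted p = 0.0267), with 10.44 to 10.75 in batch 2 and 10.76 to 11.04 in batch 1, and a second cluster of the gene by 0.43. *E2f1* had -0.23 (adjusted p = 0.0850) and *Rbl2* had 0.17 (adjusted p = 0.0737), neither of which passed. With the methods' linear model the calls of *Cdk6* (adjusted p = 0.0853), *Ccnd3* (adjusted p = 0.0531) and *E2f3* (adjusted p = 0.116) were lost. The calls of 4 genes depended on single arrays. *Ccnd2* lost it without *Sox3* null replicate 2 or control replicate 1, 2 or 3 (-0.19 to -0.15), and *E2f3* without *Sox3* null replicate 1 or 3 or control replicate 2 or 4 (-0.24 to -0.20). *Ccne1* lost it without *Sox3* null replicate 1, 2 or 4 or control replicate 1 or 3 (0.16 to 0.19), and *Ccnd3* without any array but *Sox3* null replicate 4 and control replicate 4 (-0.19 to -0.15). *E2f1* passed without control replicate 4 (-0.29, adjusted p = 0.0378) and *Rbl2* without *Sox3* null replicate 3 (0.21, adjusted p = 0.0496). After a further quantile normalization the median of the G1 group was -0.04.

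**Figure D4:**
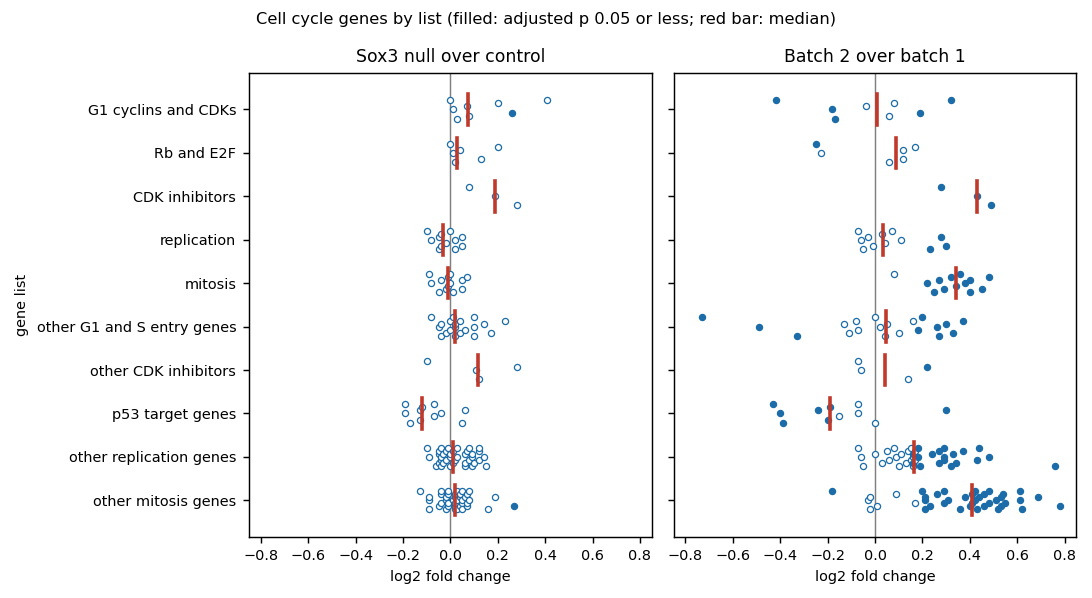
Log2 fold change of each gene by list, for Sox3 null over control (left) and batch 2 over batch 1 (right); the first 5 lists hold the 42 genes and the others the wider pathway, filled points had an adjusted p of 0.05 or less, and red bars are list medians. On the left all medians lie between -0.12 and 0.19; on the right the medians of the mitosis lists are 0.34 and 0.41 and that of the p53 targets is -0.19.

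Among the other genes of the pathway, 33 of 40 mitosis genes were higher in batch 2 and 1 was lower (*Wee1*, an inhibitory kinase of CDK1, -0.18), with a median of 0.41. Over all transcript clusters 10.9% were higher and 9.35% lower, to which the counts of the lists here compare. *Kif2c*, a microtubule-depolymerizing kinesin, was 10.96 and 10.94 in *Sox3* null cells and 10.94 and 10.86 in control cells of batch 2, against 10.26 and 10.25 in *Sox3* null cells and 10.23 and 10.20 in control cells of batch 1 (0.69, limma adjusted p = 1.90e-05). *Cenpa*, the centromeric histone, rose by 0.62 and *Prc1*, which bundles microtubules of the central spindle, by 0.54. Of 38 other replication genes 19 were higher and none was lower (median 0.16), with 0.48 for *Rfc3* and 0.43 for *Rfc4*, subunits of the clamp loader, and 0.44 for *Prim1*, the catalytic subunit of primase. Of 20 other genes of G1 and S phase entry 7 were higher and 3 lower: *Cks1b*, a subunit of CDK complexes, rose by 0.37, whereas *Myc* and *Mycn*, factors that drive growth and entry into the cycle, fell by 0.73 and 0.49. *Myc* was 9.62 and 9.90 in *Sox3* null cells and 9.83 and 9.79 in control cells of batch 2, against 10.54 and 10.51 in *Sox3* null cells and 10.49 and 10.52 in control cells of batch 1, with no overlap. Of 11 target genes of p53 6 were lower and 1 was higher (*Sesn1*, 0.30), and *Plk2*, *Sesn2* and *Mdm2*, the ubiquitin ligase that restrains p53, fell by 0.43, 0.40 and 0.39. Of 4 other CDK inhibitors 1 was higher in batch 2 and none was lower (median 0.04). *Cdkn3*, a phosphatase that acts on CDKs, rose by 0.22 (limma adjusted p = 0.0197). Its call was lost without *Sox3* null replicate 1 or 2 (adjusted p = 0.0598 and 0.0535) and with the methods' linear model (adjusted p = 0.0644). *Cdkn1c* (0.14), *Cdkn2a* (-0.07) and *Cdkn2b* (-0.06) did not pass.

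How much of each gene's variation over the 8 arrays lay between genotypes and how much between batches was computed from its sums of squares. In the mitosis group the median share was 1.52% for genotype and 92.4% for batch. It was 5.53% and 43.5% in the replication group, 12.2% and 41.3% in the G1 group, 3.31% and 35.7% in the retinoblastoma and E2F group, and 11.6% and 72.1% in the CDK inhibitors, against 8.37% and 22.3% over all transcript clusters. *Ccnd2* and *Ccne2* had more of their variation between genotypes (62.0% and 66.3%) than between batches (31.1% and 10.5%). The same order held for *Rbl1*, *Mcm5*, *Mcm7* and *Cdt1*, with smaller genotype shares, and for no other of the 42 genes. Markers of cell type were also compared between the batches, against 10.9% of all transcript clusters that were higher in batch 2 and 9.35% that were lower. Of 8 neural progenitor markers 1 was higher and 4 were lower in batch 2, where their mean was 11.20 and 11.24 in *Sox3* null cells and 10.90 and 10.95 in control cells, against 11.35 and 11.36 in *Sox3* null cells and 11.12 in both control cultures of batch 1. Of 8 pluripotency markers 2 were higher and 2 lower, of 6 neuron markers 2 were higher and 1 lower, of 6 fibroblast markers 2 were lower, and of 7 mesoderm and endoderm markers 3 were lower, with *Gata6* at -0.61. The calls of *Nes*, *Stmn2*, *Elavl4*, *Tdgf1*, *Foxa2* and *Dcx* were lost with 1 to 7 of the 8 arrays, each left out in turn, and with the methods' linear model, which also lost those of *Col1a2*, *Dppa5a* and *Eomes*. The calls of *Fabp7* and *Klf4* were not tried under these alternatives. The part of these cell types in the batch differences of the cell cycle genes was not tested.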

How the data were processed

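Gene expression was measured on Affymetrix Mouse Gene 1.0 ST arrays, 1 per culture. The authors deposited normalized log2 signals, 1 per transcript cluster and array. Partek is the tool in the submitters' processing notes. How the values were normalized and summarised, and on which genome build, was not given in the sources used here. Symbols were taken from the annotation of the platform, and checking them through Entrez IDs changed 0 symbols. Of 35556 rows, 21789 had 1 symbol, 1621 several and 12146 none here. The brightest cluster stood for a gene with several.

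The 23410 named transcript clusters entered a linear model of genotype and batch (limma 3.58.1, lmFit and eBayes, in R 4.3.3), after the 2-way ANOVA of the methods, with Benjamini-Hochberg adjustment over all of them. The interaction and the effects within batches came from fits of the same arrays. The labels make the arrays independent samples but do not say how cultures were separated, so the p-values measure the spread between these samples, which may in part be technical. Precision is limited by the number of arrays: the median residual SD was 0.0869 on the log2 scale. Steps were tested on simulated arrays.

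The members, the lists and the rule for named genes were chosen with earlier results of these data known. The rule takes, in each role, up to 4 genes with the smallest p for genotype and up to 3 for batch, and in each other list the genes that passed for genotype and the 3 with the smallest p for batch. *Mki67*, *Wee1*, *Sesn1*, *Fabp7*, *Klf4* and the cluster of *Cdkn1a* were added after their values were seen. Alternatives were other terms for batch and for the replicate number, other variance estimates, other rows, other scalings, array weights, averaged clusters, single batches and the omission of each array in turn. Measurements other than the arrays were not analysed here.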

Additional observations from a re-analysis of the deposited data

Results flagged for a closer look

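In each gene and genotype, the highest or lowest of the 4 arrays was set against the others, and 3 of 86 such groups had an array whose gap to its nearest neighbour took up more of the range of the group than Dixon's 95% critical value for 4 samples allows. In 4 values drawn from 1 normal distribution, chance flags about 1 group in 20. Each group here joins 2 arrays of each batch, so that rate need not hold for these groups. *Cdk4* was 13.65 in *Sox3* null replicate 2, against 13.76 to 13.78 in the other *Sox3* null arrays. *Rb1* was 10.16 in control replicate 1, against 10.46 to 10.51 in the other control arrays. *E2f2* was 7.26 in *Sox3* null replicate 1, against 7.51 to 7.55 in the other *Sox3* null arrays. The 3 values lie in 3 different arrays, all of batch 1, and none of these genes passed for genotype or batch.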

How the results depend on the processing

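The count of cell cycle genes higher in *Sox3* null cells was 1. It was 0 with the plain linear model, with batch left out of the model or entered as a random block, over all rows, after quantile normalization, in batch 1 alone and in batch 2 alone, and 2 (*Ccnd2* and *Cdk6*) with an intensity trend, without dim clusters, with arrays centred on the median and with clusters of a gene averaged. Leaving out 1 array gave 0 to 1 (*Cdk6*, without control replicate 4). No gene was lower in any of these fits. With the replicate number as a block 1 gene was higher, but it was *Cdk6*, and *Ccnd2* had an adjusted p of 0.0622. The correlations of same-numbered deviations were -0.324 in batch 1 and 0.305 in batch 2. With 2 arrays per genotype and batch, these cannot show whether replicate numbers paired the samples. Over all transcript clusters 362 passed for genotype, with 353 under the replicate block, 37 with no batch term, 125 with the random block, 47 in the plain linear model, 93 over all rows, 18 in batch 1 alone, 23 in batch 2 alone and 182 to 321 without 1 array, and 4736 passed for batch, with 2787 in the plain linear model. *Ccnd2* kept its call in 7 of 23 alternatives and *Cdc25b* in 11 of 23.

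The count of genes lower in batch 2 was 4, with 1 in the plain linear model and over all rows, 2 with centred arrays, and 1 to 4 without 1 array; the count of higher genes stayed between 17 and 21. Without dim clusters the median for batch was -0.05 for the retinoblastoma and E2F genes and 0.49 for the CDK inhibitors. That fit left out *Rbl2* and *E2f2* of the former and *Cdkn2c* and *Cdkn2d* of the latter. These 2 medians therefore cover fewer genes, and 0.49 is the value of *Cdkn1b* alone. After quantile normalization the median for batch was -0.04 for G1, -0.03 for replication and 0.29 for mitosis, and with centred arrays 0.06 for replication and 0.37 for mitosis. Without 1 array it was 0.37 to 0.48 for the inhibitors and 0.01 to 0.06 for replication, and the genotype median for replication was -0.03 to 0.00. The cause of the other changes was not tested. Fold changes of single genes changed sign in 63 of 961 genotype fits and 7 of 751 batch fits, none of them called in either fit. The median SE of the genotype effect over the 42 genes was 0.0524, which sets the size that 8 arrays can measure.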

Other observations

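Further transcript clusters of the cell cycle genes gave these log2 fold changes of *Sox3* null over control and of batch 2 over batch 1. The second cluster of *Pcna*, as bright as the first, had 0.03 and 0.11. The second cluster of *E2f3* had -0.01 for genotype, where the brighter cluster had 0.13. The dim second cluster of *Top2a* had 0.13 for genotype and 0.12 for batch, neither of which passed in limma (adjusted p = 0.312 and 0.162), and the 2 clusters that *Top2a* shares with *Hibadh* had 0.06 and 0.11 for genotype.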
